A study of Homo sapiens with 9 samples.

Results

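The genes described here are the collagen chains and the enzymes and chaperones that modify, fold and cross-link them. They were chosen by symbol, as every row of the deposited gene table named COL followed by a type and a chain number, together with the prolyl 4-hydroxylases P4HA1 to P4HA3, the lysyl hydroxylases PLOD1 to PLOD3, LOX and LOXL1 to LOXL4, SERPINH1 and PCOLCE. The rule found 57 of the 26475 genes in the table, of which 44 encode collagen chains and 13 the modifying proteins. All 9 libraries came from hTERT_RPE1, a line of human retinal pigment epithelial cells immortalised with telomerase, collected 24 h after seeding on fibronectin. Control cells (3 libraries) carried an empty pLKO_1 vector and grew on coated glass, and Soft cells (3 libraries) carried the same vector and grew on a coated 2.3 kPa hydrogel. sh_PIP4K2B cells (3 libraries) grew on coated glass with a hairpin against the lipid kinase PIP4K2B, a different hairpin (#1, #2 and #3) in each library, so hairpins and replicates cannot be told apart in this condition. The titles call the vector of the Control and Soft cells empty, but their treatment is labelled as a control shRNA, and whether a hairpin was expressed is not settled. No label ties the libraries of a condition to separate cultures, so the p-values measure the spread between these libraries, part of which may be technical.

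Collagens are trimeric proteins made in the endoplasmic reticulum. Proline residues of the chains are hydroxylated by enzymes whose catalytic subunits are the P4HA proteins, which lets the triple helix hold at body temperature, and lysine residues are hydroxylated by the PLOD proteins. SERPINH1 (HSP47) is the collagen-specific chaperone of this compartment. Outside the cell PCOLCE speeds the removal of the C-terminal propeptide, and LOX and its relatives oxidise lysines so that chains become cross-linked. Types I, III, V and XI form banded fibrils, type IV forms the sheet of basement membranes, type VII anchors epithelia to the tissue beneath and the fibril-associated types IX, XII, XIV, XVI and XXI decorate fibrils. Retinal pigment epithelium rests on Bruch's membrane, which contains type IV collagen and fibrillar collagens, and the study compared its cells on stiff and soft supports and after depletion of PIP4K2B.

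Total counts per library lay between 19217346 and 24020799. Levels are given as CPM, the usual counts per unit of library size, here scaled by TMM, and 3 counts in 1 library corresponded to 0.131 to 0.148 CPM. PIP4K2B fell to 39.6%, 33.5% and 30.0% of the Control mean with hairpins #1, #2 and #3 (log2 fold change -1.54, SE 0.12, adjusted p = 3.8e-04, edgeR quasi-likelihood test with Benjamini-Hochberg adjustment), and stood at 122 ± 3.90 CPM in Soft and 122 ± 2.26 CPM in Control (SD, n = 3 each). The median SD of log2 CPM over the tested members was 0.074 in Control (0.081 over all tested genes), 0.092 in Soft (0.073) and 0.588 in sh_PIP4K2B (0.356). Of 10 markers of pigment epithelium 4 had enough counts to be tested. OTX2 (10.9 CPM in Control, 37.2 CPM in Soft) and BEST1 (0.147 and 0.719 CPM) were called higher in Soft, MITF was at 36.5 and 26.0 CPM, and RPE65, TYR and LRAT were at or near 0 in every library. RLBP1, also untested, was at 0 in every Control and hairpin library and at 0.313 to 0.524 CPM in Soft. The untested PMEL was at means of 0.341 CPM in Control and 0.744 CPM in Soft, and TYRP1 at 0.0912 and 0.139 CPM. KRT8 and KRT18, epithelial keratins, were at means of 1079 and 901 CPM in Control, 557 and 419 CPM in sh_PIP4K2B and 546 and 364 CPM in Soft, and the part of these differences in the collagen values was not tested. The endothelial gene CDH5 was at or near 0 in all conditions while 3 endothelial markers summed to 0.132 to 0.874 CPM in Control and 4.87 to 5.85 CPM in Soft. Among them PECAM1 was at means of 0.103 CPM in Control and 4.79 CPM in Soft and was called higher (log2 fold change 5.45, adjusted p = 7.4e-05, edgeR). PECAM1 was tested only because Soft was high. VWF was not called (0.356 and 0.566 CPM, adjusted p = 0.33, edgeR). The leukocyte gene PTPRC stayed at or below 0.524 CPM.

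Of the 57 members 41 had enough counts to be tested, 28 of them chains and all 13 of the modifying proteins, within 13784 tested genes. COL19A1 and COL22A1 had no count in any library. The other untested members were COL2A1, COL5A1, COL6A2, COL6A5, COL6A6, COL9A1, COL9A3, COL10A1, COL20A1, COL23A1, COL24A1, COL25A1, COL26A1 and COL28A1, and none of the 16 exceeded 13 counts in a library. Of COL9A3 the Control libraries held 0, 0 and 1 counts, the hairpin libraries 1, 2 and 1, and the Soft libraries 13, 13 and 9. COL14A1 and COL9A2 passed the filter on low counts only through the Soft libraries and COL1A2 only through the Control libraries. For these genes the difference between conditions was thus a condition of being tested. COL15A1 passed through 1 hairpin and 2 Soft libraries and reached the cutoff in 0 Control libraries. COL21A1 passed through 3 hairpin and 3 Soft libraries and also reached it in 0 Control libraries, so a level above Control was a condition of its being tested.

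Per kilobase of the canonical transcript, the modifying enzymes and type IV chains stood highest in Control. LOX was at 307.5 ± 18.2, LOXL2 at 291 ± 9.29, PLOD2 at 287 ± 23.9, COL4A2 at 274 ± 8.37, COL4A1 at 248 ± 4.72, PLOD1 at 199 ± 8.54 and SERPINH1 at 178 ± 4.07 CPM per kilobase (SD, n = 3). The SDs of LOX, LOXL2 and PLOD2 overlap, so the order of these genes is not resolved, nor is that of PLOD2 and COL4A2. In Soft the order was different. SERPINH1 led with 347 ± 3.61, followed by LOXL2 with 222 ± 3.30, COL4A2 with 188 ± 7.50, PLOD1 with 157 ± 1.66, LOXL1 with 152 ± 11.4, LOX with 101 ± 3.38, COL4A1 with 96.5 ± 1.30 and PLOD2 with 81.8 ± 4.38 CPM per kilobase (SD, n = 3). PLOD1 and LOXL1 were not separated there beyond their SDs. Summed over all chains, the level was 5130 to 5301 CPM in Control and 4166 to 4396 CPM in Soft, and that of the 13 modifying proteins 5349 to 5589 CPM in Control and 3617 to 3743 CPM in Soft. COL4A1 and COL4A2 together took 65.0% to 65.5% of the chain counts in Control, 44.2%, 60.9% and 54.1% with hairpins #1, #2 and #3, and 43.2% to 43.6% in Soft.

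**Figure D1:**
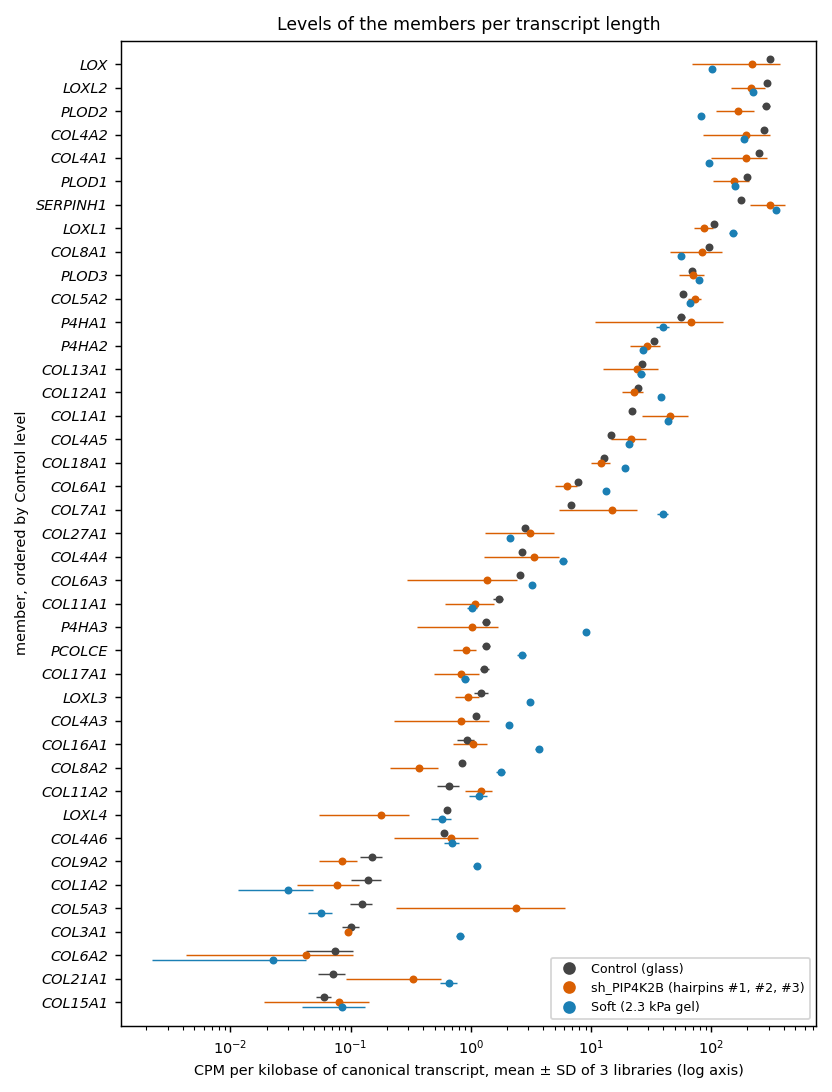
Level of each member above 0.05 CPM per kilobase in Control, as the mean and SD of 3 libraries on a log axis, in Control, sh_PIP4K2B and Soft, ordered by the Control level. Left error ends are cut at 0.1 of the mean. LOX, LOXL2, PLOD2, COL4A2 and COL4A1 stood highest in Control and SERPINH1 in Soft.

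On the soft gel collagen genes moved in both directions. Fibril-associated chains, the anchoring collagen COL7A1, the fibrillar chains COL1A1 and COL3A1, the chaperone SERPINH1 and P4HA3 rose, while COL4A1, PLOD2 and LOX fell. Of the 41 tested members 18 passed an adjusted p of 0.01 (edgeR), or 43.9%, where 30.6% of all tested genes did. Of these 15 were higher (36.6% of the members, against 15.8% of all tested genes) and 3 were lower (7.32%, against 14.8%). COL14A1 and COL9A2 are among the 15, but they were tested only because Soft was high. COL21A1, also among them, reached the filter cutoff only outside Control. For these genes a higher level was a condition of being tested. The median and the non-overlaps given next include them and COL1A2, tested only because Control was high. The median log2 fold change was 0.50 over the tested members and 0.01 over all tested genes. The Soft and Control libraries did not overlap in 37 of the 41 members, 23 with every Soft library higher and 14 lower, a share of 90.2% against 79.4% over all tested genes.

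The threshold in this comparison rested on a spread shared with the hairpin libraries. A fit of the Control and Soft libraries alone called 37 of its 40 tested members, with 70.7% of all tested genes called. Without any single Control or Soft library the count was 9 to 10, when 17.9% to 19.4% of all tested genes were called. Without a hairpin library it was 22 to 25, when 36.9% to 45.6% were called. COL3A1, COL7A1, COL9A2, COL14A1, COL16A1, COL21A1, LOXL3, P4HA3 and PLOD2 were called in each of the 9 fits with 1 library left out. COL1A1, COL4A1, COL6A1, COL8A2, COL12A1, COL18A1, LOX, PCOLCE and SERPINH1 kept their direction in those fits and lost their call without any one of the Control or Soft libraries, LOX also without hairpin #2 and COL1A1 also without hairpin #3. Bulk RNA does not tell a change in every cell from a change in the share of cells that express a gene. Among 7 fibroblast and smooth muscle markers 4 were called higher in Soft (PDGFRA, PDGFRB, DCN and LUM, the last at 0.640 CPM) and TAGLN lower. ACTA2 (154 CPM in Control, 48.9 CPM in Soft, adjusted p = 0.0103) and THY1 (568 and 377 CPM, adjusted p = 0.053, edgeR) lay below Control in every Soft library without passing the threshold. The markers had summed levels of 2130 to 2185 CPM in Control and 960 to 1054 CPM in Soft, and their part in the collagen changes was not tested.

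**Figure D2:**
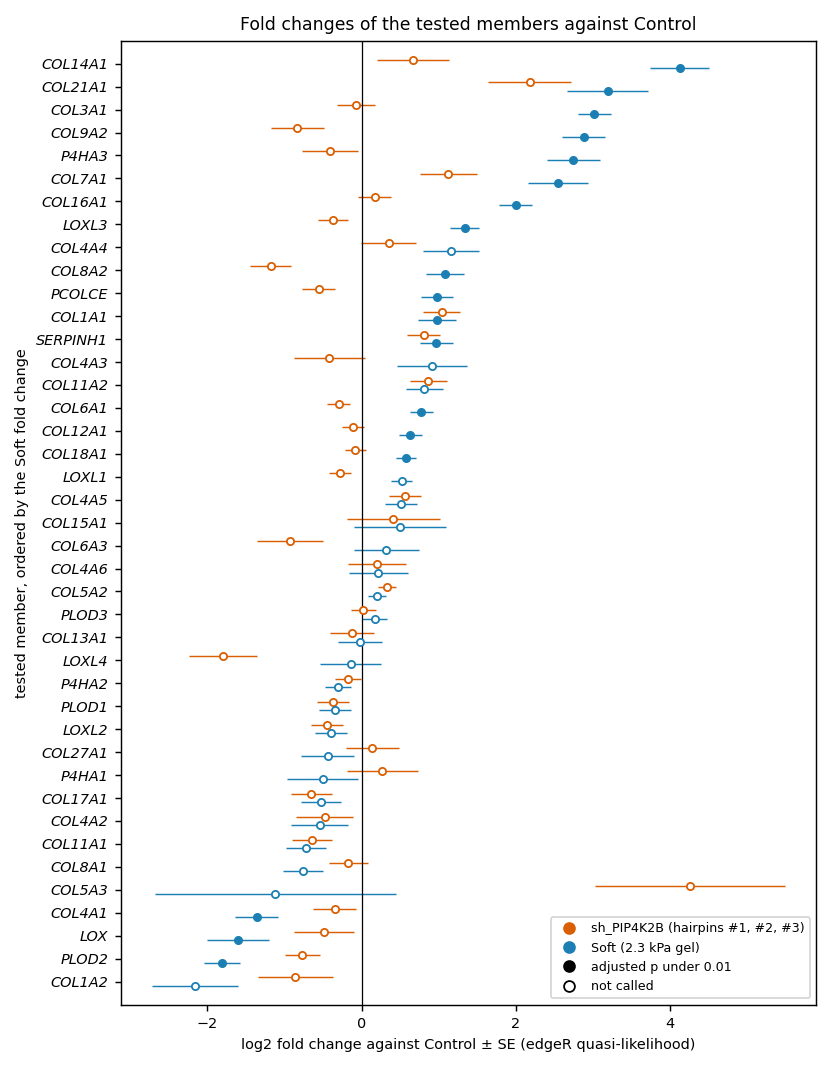
Log2 fold change against Control, with its SE, of the 41 tested members in sh_PIP4K2B and in Soft, ordered by the Soft value. Filled points passed an adjusted p of 0.01 (edgeR). In Soft 18 points are filled, 15 to the right of 0 and 3 to the left, and in sh_PIP4K2B none.

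Type IV chains are encoded in pairs that lie head to head. COL4A1 (chr13:110148963-110307157, minus strand, GRCh38) and COL4A2 (chr13:110305812-110513209, plus strand) encode the chains of the common type IV trimer, and their RefSeq start sites lie 127 bases apart. The stretch between them is shown because these 2 start sites bound it and the levels of the genes nevertheless separated on the soft gel. In the gene coordinates above, which come from GENCODE, COL4A2 begins inside COL4A1, so the 2 annotations differ in its start. It is printed on the plus strand, chr13:110307157-110307284 (GRCh38.p14), with the CCAAT box (CCAAT) and the GC box (GGGCGG) in capitals.

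COL4A1-COL4A2: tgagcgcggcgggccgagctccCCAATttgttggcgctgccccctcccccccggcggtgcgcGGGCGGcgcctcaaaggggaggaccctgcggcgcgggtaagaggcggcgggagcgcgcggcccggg

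COL4A1 was at 1648, 1586 and 1621 CPM in Control and at 628, 640 and 624 CPM in Soft. Every Soft library lay below every Control library, and the Soft mean was 39.0% of the Control mean (log2 fold change -1.36, SE 0.28, adjusted p = 0.0034, edgeR). COL4A2 was at 1823, 1751 and 1717 CPM in Control and at 1188, 1264 and 1174 CPM in Soft. These libraries did not overlap either, but the fit did not call the difference (log2 fold change -0.55, SE 0.37, adjusted p = 0.25, edgeR). With levels taken per kilobase, the ratio of COL4A1 to COL4A2 was 0.905 ± 0.0223 in Control and 0.515 ± 0.0134 in Soft (SD, n = 3), and it was 1.70, 1.03 and 0.682 with hairpins #1, #2 and #3. The ratio was lower in every Soft library than in every Control library, and the hairpins lay on both sides of Control. With 3 libraries against 3 an exact permutation test cannot give a two-sided p below 0.1, so no test of the ratio is given. COL4A2 overlaps annotated antisense RNAs, and the sources used here do not state whether reads were counted by strand.

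The chains of the other type IV trimers went the other way on the soft gel without passing the threshold. COL4A3 and COL4A4, start sites 419 bases apart on chromosome 2, encode chains found in specialised basement membranes together with COL4A5. COL4A4 was at 26.9, 25.2 and 27.0 CPM in Control and 63.7, 54.7 and 58.2 CPM in Soft (log2 fold change 1.16, SE 0.36, adjusted p = 0.026, edgeR). COL4A3 was at 9.26, 8.77 and 8.60 CPM in Control and 17.9, 15.7 and 16.7 CPM in Soft (0.91, SE 0.45, adjusted p = 0.12). COL4A5 was at 97.3, 92.0 and 96.8 CPM in Control and 132, 146 and 131 CPM in Soft (0.51, SE 0.21, adjusted p = 0.068). For all 3 genes every Soft library lay above every Control library. COL4A6, on the opposite strand from COL4A5 on the X chromosome, overlapped between the conditions at 3.84 to 4.21 CPM and 4.09 to 5.45 CPM. With hairpin #3 COL4A3 stood at 1.83 CPM and COL4A4 at 29.5 CPM, a ratio per kilobase of 0.0770 where the Control libraries gave 0.396 to 0.432.

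Among 8 tested fibrillar chains 2 rose on the soft gel and none fell past the threshold, where 30.6% of all tested genes were called. COL1A1, which encodes the more abundant chain of type I collagen, was at 135, 127 and 128 CPM in Control and 245, 270 and 252 CPM in Soft, a 1.97-fold difference of the means (log2 fold change 0.98, SE 0.24, adjusted p = 0.0091, edgeR). Its partner COL1A2 had 20, 14 and 13 counts in Control and 1, 4 and 5 counts in Soft (log2 fold change -2.16, SE 0.56, adjusted p = 0.011, edgeR). Per kilobase, the ratio of COL1A1 to COL1A2 was 124.7 to 193.5 in the Control libraries and 968 to 4613 in the Soft libraries, which rest on 1 to 5 counts of COL1A2. An antisense gene overlaps COL1A1 in the annotation. COL3A1, the chain of type III collagen, was at 0.652, 0.526 and 0.480 CPM in Control and 4.88, 4.28 and 4.33 CPM in Soft (log2 fold change 3.01, SE 0.22, adjusted p = 1.5e-05, edgeR). Its counts were 11 to 14 in Control and 90 to 107 in Soft, so it rose from a low level to one that remained low beside COL1A1.

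Of the type V chains COL5A2 was by far the most abundant, and COL5A3 had 13 to 21 counts in Control and 6 to 9 in Soft. COL5A2 was at 390.0 to 399.8 CPM in Control and 448 to 465 CPM in Soft, without overlap (log2 fold change 0.20, SE 0.12, adjusted p = 0.18, edgeR), while COL5A1, the major chain of type V trimers, had 1 to 6 counts in Control and 8 or 9 in Soft. COL11A1 and COL11A2, chains of the related type XI, shifted in opposite directions. COL11A1 was at 11.5 to 13.8 CPM in Control and 6.997 to 8.34 CPM in Soft (-0.72, SE 0.26, adjusted p = 0.045), and COL11A2 at 3.71 to 5.26 CPM in Control and 6.29 to 8.85 CPM in Soft (0.81, SE 0.24, adjusted p = 0.020). Per kilobase, their ratio was 2.61 ± 0.282 in Control, 0.912 ± 0.237 in Soft and 0.892 ± 0.225 in sh_PIP4K2B (SD, n = 3), and it was lower in each hairpin and each Soft library than in any Control library. COL27A1 did not pass (adjusted p = 0.32, edgeR).

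The fibril-associated chains COL9A2, COL12A1, COL14A1, COL16A1 and COL21A1 rose on the soft gel. COL14A1 and COL9A2 were tested only because Soft was high, and COL21A1 reached the filter cutoff only outside Control. How many rose is thus not a measure of the family. COL12A1, which binds the surface of type I fibrils, was the only abundant one, at 283, 285 and 294 CPM in Control and 421, 457 and 457 CPM in Soft (log2 fold change 0.63, SE 0.14, adjusted p = 0.0058, edgeR). COL16A1 (chr1:31652263-31704319, minus strand) was at 5.91, 4.61 and 4.46 CPM in Control and 19.9, 21.4 and 18.5 CPM in Soft, 3.99-fold higher (2.00, SE 0.22, adjusted p = 1.1e-04). The others rose from a few counts. COL14A1 had 3, 6 and 3 counts in Control and 82, 61 and 66 in Soft (4.12, SE 0.38, adjusted p = 5.2e-05). COL21A1 had 8, 5 and 7 counts in Control and 63, 66 and 51 in Soft (3.19, SE 0.52, adjusted p = 0.0010). COL9A2 had 7, 11 and 11 counts in Control and 67, 65 and 77 in Soft (2.88, SE 0.27, adjusted p = 6.0e-05).

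COL7A1 (chr3:48564073-48595329, minus strand) encodes the chain of anchoring fibrils and showed the largest rise among the members above 50 CPM. It was at 63.0, 60.6 and 64.9 CPM in Control and at 343, 412 and 344 CPM in Soft. The Soft libraries lay well above all Control libraries, 5.84-fold by the means (log2 fold change 2.54, SE 0.39, adjusted p = 7.1e-04, edgeR). In Control it was among the minor chains per kilobase (6.80 CPM), and in Soft it reached 39.7 CPM per kilobase, beside 43.3 for COL1A1 and 37.9 for COL12A1. Its RefSeq promoter window, 250 bases before to 50 after the start, is shown as that of a member that rose. It holds no CCAAT on either strand, and the GC box (GGGCGG, or its complement) is in capitals, on the minus strand at chr3:48595280-48595579 (GRCh38.p14).

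COL7A1: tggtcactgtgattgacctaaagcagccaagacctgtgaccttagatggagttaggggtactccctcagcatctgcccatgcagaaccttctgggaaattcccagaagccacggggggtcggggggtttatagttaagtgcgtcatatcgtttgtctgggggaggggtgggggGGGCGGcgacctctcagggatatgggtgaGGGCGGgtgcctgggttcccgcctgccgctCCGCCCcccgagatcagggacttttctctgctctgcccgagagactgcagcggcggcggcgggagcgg

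Of the type VI chains, which form beaded microfibrils, COL6A1 rose from 32.8, 33.8 and 31.1 CPM in Control to 58.2, 54.2 and 54.5 CPM in Soft (log2 fold change 0.77, SE 0.15, adjusted p = 0.0024, edgeR). COL6A3 was at 25.7 to 28.3 CPM in Control and 32.0 to 35.0 CPM in Soft (0.32, SE 0.42, adjusted p = 0.56), and COL6A2 did not exceed 8 counts in any library. Type VIII chains form a hexagonal network. COL8A2 rose from 3.82, 4.17 and 3.76 CPM to 9.07, 8.00 and 7.82 CPM (1.08, SE 0.25, adjusted p = 0.0062), while the abundant COL8A1 was at 515 to 530.5 CPM in Control and 306 to 319 CPM in Soft (-0.76, SE 0.26, adjusted p = 0.036). The ratio of COL8A1 to COL8A2 per kilobase was 114 ± 5.77 in Control and 31.8 ± 2.83 in Soft (SD, n = 3), without overlap. COL18A1, the multiplexin that carries endostatin at its end, rose from 66.1 to 72.8 CPM in Control to 102 to 105 CPM in Soft (0.58, SE 0.13, adjusted p = 0.0056). COL15A1 and the transmembrane chains COL13A1 and COL17A1 did not pass (adjusted p from 0.13 to 0.96, edgeR), and COL18A1 overlaps the gene SLC19A1 on the other strand.

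The hydroxylases differed from each other. P4HA3, the least abundant of the prolyl 4-hydroxylase subunits, was at 3.31, 2.94 and 2.88 CPM in Control and 19.6, 21.4 and 20.2 CPM in Soft, 6.71-fold higher (log2 fold change 2.74, SE 0.34, adjusted p = 2.4e-04, edgeR). P4HA1 was at 145 to 168 CPM in Control and 94.1 to 120 CPM in Soft (-0.50, SE 0.46, adjusted p = 0.39), and P4HA2 at 143 to 159 CPM and 119 to 124 CPM (-0.31, SE 0.17, adjusted p = 0.16). Both lay below Control in every Soft library, and in all conditions they stood above P4HA3 per kilobase. PLOD2 (chr3:146035139-146163725, minus strand) hydroxylates the lysines of the collagen telopeptides, from which stable cross-links form. It was at 992, 1061 and 1170 CPM in Control and 319, 288 and 312 CPM in Soft. The Soft mean was 28.5% of the Control mean (-1.81, SE 0.23, adjusted p = 2.6e-04, edgeR), the lowest fold change among the members called. PLOD1 was at 573 to 622 CPM in Control and 461 to 469.7 CPM in Soft (adjusted p = 0.19), and PLOD3 at 192 to 205 CPM and 219 to 225 CPM (adjusted p = 0.41). Per kilobase, PLOD2 exceeded PLOD1 1.44-fold in Control (SD 0.177, n = 3) and stood at 0.522 of it in Soft (SD 0.0300, n = 3).

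LOX (chr5:122063195-122078413, minus strand), which oxidises collagen and elastin lysines, was at 1503, 1513 and 1667 CPM in Control and 503, 533 and 505 CPM in Soft. All Soft libraries lay at about the same level, and their mean was 32.9% of the Control mean (log2 fold change -1.60, SE 0.40, adjusted p = 0.0091, edgeR). This call is close to the threshold and was lost under scaling by library size or the upper quartile and with a filter of 10 counts in every library. Its relatives differed. LOXL3 rose from 3.96, 5.18 and 4.41 CPM to 11.2, 11.2 and 11.8 CPM (1.33, SE 0.19, adjusted p = 4.3e-04). LOXL1 was at 254, 247 and 247 CPM in Control and 384, 331 and 355 CPM in Soft and just missed the threshold (0.52, SE 0.14, adjusted p = 0.013), and LOXL2 was at 1053 to 1122 CPM and 815 to 838 CPM (-0.40, SE 0.21, adjusted p = 0.15). LOXL4 overlapped between the conditions at 2.19 to 2.42 and 1.64 to 2.41 CPM. Genes on the opposite strand overlap exons of LOXL1 to LOXL4 and of P4HA1 to P4HA3.

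The promoters of the enzymes that fell are shown because PLOD2 and LOX, like COL4A1, fell on the soft gel, and all 3 windows hold CCAAT. Both windows are on the minus strand of GRCh38.p14, at chr3:146161135-146161434 for PLOD2 and chr5:122078210-122078509 for LOX. Where RefSeq gave several windows, the one with its start nearest the GENCODE gene start was taken. The PLOD2 window lies inside the gene coordinates given above. Capitals mark CCAAT and the hypoxia response core ACGTG, on either strand.

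PLOD2: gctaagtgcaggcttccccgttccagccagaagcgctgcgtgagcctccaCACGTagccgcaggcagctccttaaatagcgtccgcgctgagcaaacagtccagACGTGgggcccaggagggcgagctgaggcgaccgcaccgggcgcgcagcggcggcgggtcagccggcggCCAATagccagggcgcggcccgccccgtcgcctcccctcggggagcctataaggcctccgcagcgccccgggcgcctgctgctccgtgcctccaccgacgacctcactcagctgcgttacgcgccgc
LOX: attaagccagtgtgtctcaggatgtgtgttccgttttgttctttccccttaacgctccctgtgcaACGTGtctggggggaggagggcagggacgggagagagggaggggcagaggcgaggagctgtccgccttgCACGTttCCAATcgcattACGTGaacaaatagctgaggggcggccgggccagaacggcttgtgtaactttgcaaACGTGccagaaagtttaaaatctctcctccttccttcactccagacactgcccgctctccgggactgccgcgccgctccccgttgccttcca

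SERPINH1 (chr11:75562056-75572783, plus strand) was at 375, 359 and 362 CPM in Control and at 723, 709 and 712 CPM in Soft. The Soft libraries lay within a narrow range, 1.96-fold above Control by the means (log2 fold change 0.97, SE 0.21, adjusted p = 0.0051, edgeR). PCOLCE was at 2.19, 1.97 and 1.92 CPM in Control and 4.38, 3.67 and 3.98 CPM in Soft (0.98, SE 0.21, adjusted p = 0.0040), and an antisense gene overlaps it. The SERPINH1 window (chr11:75562003-75562302, plus strand, GRCh38.p14) is shown because it was the only tested member window with the heat shock motif TTCNNGAA, in which N is any base. That motif and ACGTG, on either strand, are in capitals.

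SERPINH1: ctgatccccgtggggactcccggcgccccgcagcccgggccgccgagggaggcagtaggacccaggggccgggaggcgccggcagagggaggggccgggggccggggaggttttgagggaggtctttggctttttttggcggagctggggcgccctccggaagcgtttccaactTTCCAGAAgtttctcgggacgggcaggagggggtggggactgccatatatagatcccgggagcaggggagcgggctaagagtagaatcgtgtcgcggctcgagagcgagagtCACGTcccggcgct

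RefSeq windows were at hand for 43 of the 57 members and for 13 of the 18 called in Soft. CCAAT, searched on both strands, was in 10 of 32 tested members with a window and in 34.6% of 35116 windows of all genes. It was in the windows of COL4A1, PLOD2 and LOX, the members that fell in Soft, and in none of the 10 windows of members that rose. The called members without a window, COL1A1, COL3A1, COL6A1, COL14A1 and P4HA3, all rose and could not be read. Among members not called, CCAAT was in COL4A5, above Control in every Soft library, and in COL4A6, which overlapped. It was also in COL4A2, COL5A3, COL11A1, COL17A1 and P4HA2, below Control in every Soft library. The windows of COL27A1, P4HA1 and PLOD1, which also lay below Control in every Soft library, did not hold it. Whether this motif went with the direction of change was not tested. GGGCGG was in 20 of the 32 and in 45.0% of all windows, among them 7 of the 10 that rose and all 3 that fell. ACGTG was in 8 of the 32 (21.4% of all windows), and GCGTG in 12 (36.5%). The TEAD core GGAATG was in the windows of COL12A1, LOXL3 and P4HA2 (14.0% of all windows), and TTCNNGAA in that of SERPINH1 (7.74%). GCGTG and ACGTG can overlap, all were read on both strands, and a match is a description of the letters and not of a bound site.

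**Figure D3:**
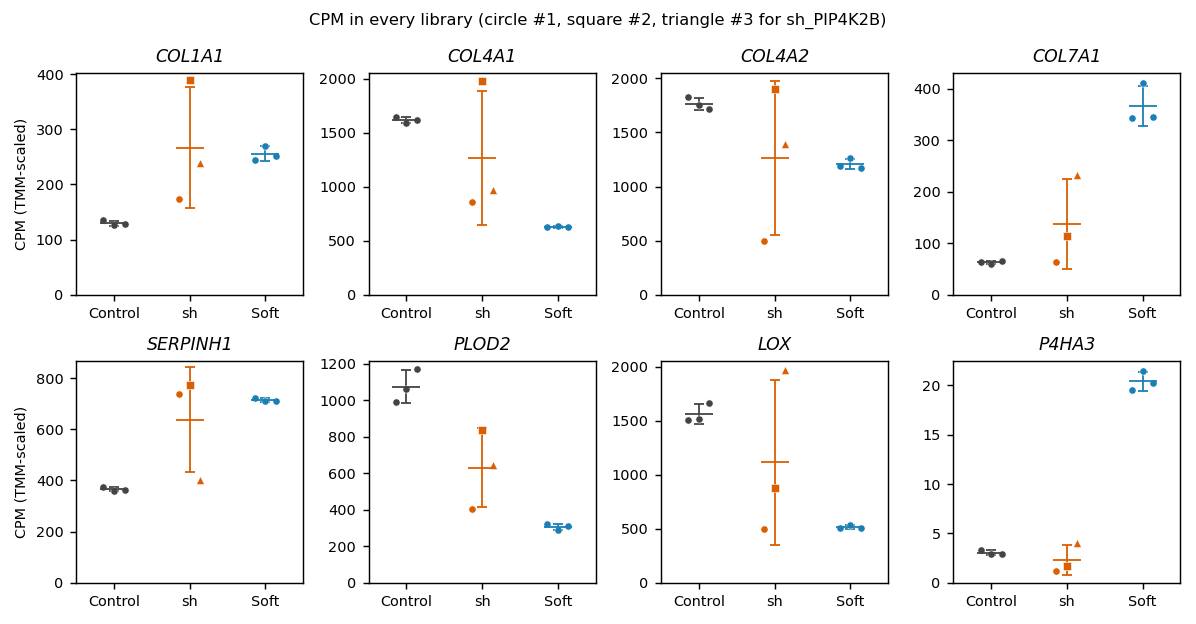
CPM of 8 members in every library, on linear axes from 0, with the mean and SD of 3 libraries per condition and circles, squares and triangles for hairpins #1, #2 and #3. COL1A1, COL7A1, SERPINH1 and P4HA3 were higher in every Soft than in every Control library and COL4A1, COL4A2, PLOD2 and LOX lower, while the hairpin libraries lay apart from each other.

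Depletion of PIP4K2B left no member past the threshold. In sh_PIP4K2B against Control 0 of the 41 tested members passed an adjusted p of 0.01 (edgeR), where 5.54% of all tested genes did. At an unadjusted p below 0.05 there were 14 members (34.1%, against 33.2% of all tested genes). At an adjusted p below 0.05 there were 8 (19.5%, against 17.2%), and DESeq2 called 8 at 0.01 (19.5%, against 15.0%). The shares of members were thus close to those of all tested genes. The median log2 fold change was -0.17, with 25 members lower and 16 higher, against 0.05 over all tested genes, and it was -0.10 without hairpin #1 and 0.000 with no filter on low counts. The hairpin libraries did not overlap with Control in 13 members, 5 with all hairpins above and 8 with all below, or 31.7% against 34.1% of all tested genes.

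The 8 members called by DESeq2 were the same 8 that passed 0.05 in edgeR. COL1A1 reached 174, 388 and 238 CPM with the hairpins in order, where Control had 127 to 135 CPM (log2 fold change 1.04, SE 0.24, adjusted p = 0.020, edgeR), and all hairpins lay above Control. SERPINH1 reached 736, 774 and 403 CPM, where Control had 359 to 375 CPM (0.80, SE 0.21, adjusted p = 0.032), so that hairpins #1 and #2 stood at the level of Soft and hairpin #3 near Control. PLOD2 was at 407, 837 and 647 CPM against 992 to 1170 CPM, below Control with each hairpin (-0.77, SE 0.22, adjusted p = 0.044). COL8A2 was at 1.61, 1.06 and 2.52 CPM against 3.76 to 4.17 CPM, below Control with each hairpin (-1.18, SE 0.27, adjusted p = 0.018), while in Soft it rose. LOXL4 had 14, 23 and 4 counts against 50 to 52 (-1.80, SE 0.44, adjusted p = 0.023). COL21A1 had 24, 51 and 11 counts against 5 to 8 (2.18, SE 0.54, adjusted p = 0.025), and COL11A2 was at 5.52 to 9.29 CPM against 3.71 to 5.26 CPM (0.86, SE 0.24, adjusted p = 0.037). COL21A1 reached the filter cutoff only outside Control, so a level above Control was a condition of its being tested. COL5A3, a minor chain of type V collagen, was high mainly with 1 hairpin. It had 19, 57 and 830 counts with hairpins #1, #2 and #3 against 13 to 21 in Control (4.25, SE 1.23, adjusted p = 0.043). Antisense transcription overlaps it in the annotation.

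**Figure D4:**
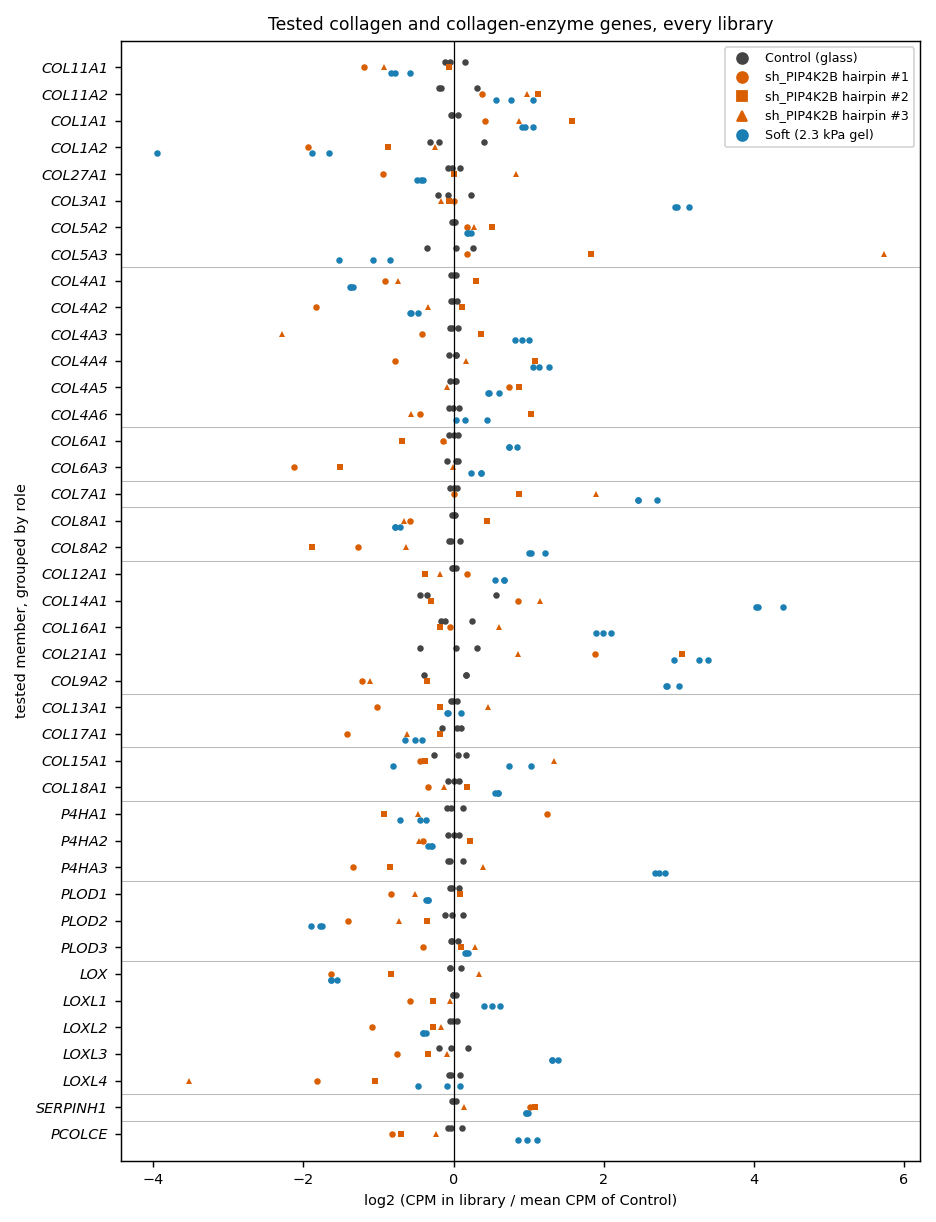
Log2 ratio of the CPM in each library to the Control mean for the 41 tested members, grouped by role, with the hairpins of sh_PIP4K2B drawn as different symbols. The Soft libraries sit close together for most members, while the hairpins of 28 members overlap with Control and COL5A3 is by far highest with hairpin #3.

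Other members differed widely between hairpins. COL4A1 was at 858, 1983 and 966 CPM and COL4A2 at 496, 1897 and 1396 CPM with hairpins #1, #2 and #3, so hairpin #2 lay above Control for both. LOX was at 501, 878 and 1969 CPM, at the level of Soft with hairpin #1 and above Control with hairpin #3. P4HA1 was at 365, 81.4 and 111 CPM against 145 to 168 CPM, above Control with hairpin #1 alone. COL7A1 was at 62.9, 114 and 233 CPM against 60.6 to 64.9 CPM, and COL6A3 at 6.21, 9.58 and 27.1 CPM against 25.7 to 28.3 CPM. COL8A1 was at 352, 711 and 331 CPM against 515 to 530.5 CPM.

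Leaving out 1 hairpin brought 4 to 8 members past the threshold. Without hairpin #1 they were COL1A1, COL5A3, COL7A1 and COL11A2, all higher, when 11.9% of all tested genes were called. Without hairpin #2 they were COL1A1, higher, and COL4A1 (log2 fold change -0.83), COL8A1 (-0.62), COL11A1 (-1.06), LOXL4 (-2.41), P4HA2 (-0.43), PLOD1 (-0.67) and PLOD2 (-1.03), lower, when 14.4% were called. Without hairpin #3 they were SERPINH1 (1.05), COL4A5 (0.80) and COL21A1 (2.55), higher, and COL6A3 (-1.79), COL8A2 (-1.55), LOX (-1.18) and P4HA3 (-1.08), lower, when 12.7% were called. COL1A1 was the only member called without either of 2 hairpins.

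The direct comparison of Soft with sh_PIP4K2B tests the difference between the responses to the gel and to the hairpins, which share the Control libraries. It called 13 of the 41 members (31.7%, against 30.0% of all tested genes), 12 higher in Soft (29.3%, against 14.5%) and 1 lower (2.44%, against 15.5%). The median log2 fold change was 0.13 over the members and -0.03 over all tested genes. Largest were COL9A2 (3.71, SE 0.30, adjusted p = 3.5e-05, edgeR), COL14A1 (3.45, SE 0.36, adjusted p = 1.1e-04), P4HA3 (3.16, SE 0.35, adjusted p = 1.6e-04) and COL3A1 (3.08, SE 0.22, adjusted p = 2.0e-05). COL9A2 and COL14A1 are among the 12, but they were tested only because Soft was high, so their difference was a condition of being tested. COL8A2 (2.26), COL16A1 (1.83), LOXL3 (1.71), PCOLCE (1.54), COL6A1 (1.07), LOXL1 (0.80), COL12A1 (0.74) and COL18A1 (0.66) were also higher in Soft. PLOD2 was lower (-1.04, SE 0.23, adjusted p = 0.0049), so its level on the gel lay below that of each hairpin. Without hairpin #2 or hairpin #3 the count was 20, when 34.0% and 37.7% of all tested genes were called. The median over the members was 0.40 in both cases.

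For other members the direct difference was small beside its SE. COL1A1 differed by -0.06 (SE 0.24, adjusted p = 0.86, edgeR), SERPINH1 by 0.16 (SE 0.21, adjusted p = 0.55), COL11A2 by -0.05 (SE 0.23, adjusted p = 0.87) and COL11A1 by -0.08 (SE 0.26, adjusted p = 0.82). A missed threshold does not show that the levels were alike, and the SEs allow differences in either direction. COL4A1 (-1.01, SE 0.28, adjusted p = 0.015), COL7A1 (1.42, SE 0.37, adjusted p = 0.012), LOXL4 (1.66, SE 0.44, adjusted p = 0.013) and COL5A3 (-5.37, SE 1.36, adjusted p = 0.010) lay just outside the threshold.

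The rest of the collagen pathway was read from lists of genes with known roles, whose counts stand beside 15.8% of all tested genes called higher and 14.8% called lower in Soft. Of 9 tested collagen receptors 5 were called higher in Soft than in Control and none was called lower. Of these ITGA10 (log2 fold change 3.56), DDR1 (2.04), ADGRG1 (1.56) and ITGA11 (1.497) had the largest changes (adjusted p at most 3.1e-04, edgeR). ITGB1, the shared beta subunit of collagen-binding integrins, was at 3760 to 4177 CPM in Control and 2692 to 2840 CPM in Soft (-0.51, adjusted p = 0.076, edgeR). The median of the receptors was 0.84, and none was called in sh_PIP4K2B. The list for propeptide cleavage held 7 tested genes, not all of them proteinases. Of these ADAMTS14 (1.58), ADAMTS3 (1.20) and BMP1 (0.98), proteinases that remove the ends of procollagen, were higher in Soft. The other 4 genes had negative values that did not pass the threshold, from -2.06 for TLL1 to -0.31 for SPARC, the median of the list. PCOLCE2, a relative of PCOLCE, was nearest to it (-0.96, adjusted p = 0.011, edgeR). Of 5 genes of collagen breakdown CTSK (1.57) and MMP14 (1.16) were higher in Soft, and MMP1, an interstitial collagenase, was higher in sh_PIP4K2B (3.54, adjusted p = 0.0093, edgeR) at a mean of 2.83 CPM.

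For genes that fold collagen and carry it out of the cell, 4 of 13 and 4 of 9 were called in Soft, where 30.6% of all tested genes were. Of the folding genes CRTAP (0.75) and FKBP7 (1.01) were higher in Soft and FKBP14 (-1.01) and TMEM38B (-0.91) lower, and FKBP14, a prolyl isomerase of the endoplasmic reticulum, was also lower in sh_PIP4K2B (-1.06, SE 0.10, adjusted p = 6.8e-04, edgeR). Of the export genes CTAGE5 (1.06) and MIA3 (0.61) were higher in Soft and SEC23A (-0.75) and SAR1B (-0.52) lower. MIA3 (TANGO1), which loads procollagen into export carriers, was higher in sh_PIP4K2B as well (0.82, SE 0.11, adjusted p = 0.0016). Of 5 small proteoglycans, which bind fibrils, DCN (3.39) and LUM (2.55) were higher and PRELP (-0.94) lower in Soft, and PRELP was lower in sh_PIP4K2B (-1.97, adjusted p = 0.0016, edgeR). PLOD2 and LOX are known targets of the hypoxia response, and of 8 tested genes of that response VEGFA (3.08), NDRG1 (2.21) and SLC2A1 (0.60) were higher in Soft past the threshold, while PDK1 (-0.92, adjusted p = 0.019) and BNIP3 (-0.69, adjusted p = 0.033, edgeR) lay below Control in every Soft library without passing it. The list had summed levels of 720 to 737 CPM in Control and 1853 to 1941 CPM in Soft. VEGFA was also higher in sh_PIP4K2B (0.80, SE 0.14, adjusted p = 0.0053, edgeR), and the part of this response in the values of PLOD2 and LOX was not tested.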

How the data were processed

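RNA of hTERT_RPE1 cells was sequenced from stranded mRNA libraries as paired reads. Per the labels the submitters' processing notes name STAR, Salmon and GRCh38/hg38, and the authors deposited estimated counts per gene, not normalised and not pooled. The tool that assigned reads to genes, its annotation and its strand setting are not given in the sources used here. Rounding to integers altered 12.3% of the entries. The depth was 19217346 to 24020799 counts a library.

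The quasi-likelihood F test of edgeR 4.0.16 (R 4.3.3), after filterByExpr and TMM, was applied in 1 fit of the 9 libraries, with Benjamini-Hochberg adjustment over 13784 tested genes and a threshold of 0.01. SEs come from the F statistic. Alternatives were no filter, a minimum of 10 counts throughout, library-size or upper-quartile scaling, DESeq2 1.42.0, only the 2 conditions compared, a replicate block, each library left out, an adjusted p of 0.05 and an added 2-fold limit. The script was tested on simulated data.

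The members, lists and tests were chosen with earlier results of these data known. Named members were those of a list of main chains and enzymes and, per comparison, up to 8 highest and 8 lowest called members whose mean reached 50 counts in 1 condition or more. COL18A1, COL5A3, COL4A3 to COL4A6, COL8A1, COL9A3, COL11A1, COL11A2 and other members outside it were named after their values were seen. From each pathway list at most 4 genes past the threshold were named. Gene positions and transcript lengths come from GENCODE on GRCh38 and promoter windows from RefSeq on GRCh38.p14. Of the 75-mers of the members' canonical transcripts, 5.14% for P4HA2 and 1.34% for LOXL2 recurred in other genes, and none did for the other members.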

Additional observations from a re-analysis of the deposited data

Results flagged for a closer look

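For 10 members the gel and the hairpins gave log2 fold changes of opposite sign against Control, and the direct test of Soft against sh_PIP4K2B passed an adjusted p of 0.01 (edgeR). All 10 were higher in Soft. How many of all tested genes met both conditions is not given, so the count is not a measure of the members as a group. COL9A2 was tested only because Soft was high, so its difference was a condition of being tested. The differences were 3.71 for COL9A2, 3.16 for P4HA3, 3.08 for COL3A1, 2.26 for COL8A2, 1.71 for LOXL3, 1.54 for PCOLCE, 1.07 for COL6A1, 0.80 for LOXL1, 0.74 for COL12A1 and 0.66 for COL18A1. None of them passed the threshold in sh_PIP4K2B against Control, where the values lay between -1.18 (COL8A2) and -0.07 (COL3A1), so for most the side of Control on which the hairpins lay is not settled. For COL8A2, PCOLCE, COL6A1 and LOXL1 every hairpin library was below and every Soft library above every Control library. The share of all tested genes with that pattern is not given either.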

How the results depend on the processing

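Each call kept its direction under every alternative run. In sh_PIP4K2B against Control the count of 0 members became 1 with scaling by library size (4.84% of all tested genes called). It became 8 with DESeq2 (15.0%) and 8 at an adjusted p of 0.05 (17.2%). Leaving out 1 library gave 0 to 8 (0.471% to 14.4%). In Soft against Control the count of 18 became 37 in a fit of the 2 conditions (70.7% of all tested genes called), in which the hairpin libraries no longer add to the spread. Leaving out 1 library gave 9 to 25 (17.9% to 45.6%). In Soft against sh_PIP4K2B the count of 13 became 20 at an adjusted p of 0.05 (46.2%), and leaving out 1 library gave 10 to 20 (16.8% to 38.4%). The other alternatives stayed within 1.5 times these counts. Libraries with the same replicate number did not deviate together (correlations of -0.115 to 0.039). The titles number the empty vectors of Control and Soft alike, and whether the numbers pair these libraries is not settled. With a replicate block the counts were 0, 13 and 14, when 2.14%, 25.7% and 24.4% of all tested genes were called. Scaling by library size moved the median log2 fold change of all tested genes in Soft by 0.107 and that of the members from 0.50 to 0.61. Members with under about 15 counts a library in Control (COL3A1, COL9A2, COL14A1 and COL21A1) have fold changes that depth leaves imprecise.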
